A study of Mus musculus with 8 samples.

Results

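The transcripts of 10 mast cell cytokines and chemokines were followed in cultured peritoneal mast cells (PMCs) given no added stimulus. These were Il4, Il13, Il6, Tnf, Csf1, Ccl2, Ccl3, Ccl4, Lif and Tgfb1. All 10 were found by gene name among the 55359 genes of the deposited gene count table. RNA was sequenced from 8 untreated cultures, of which 6 were primary WT PMCs (3 from female and 3 from male mice) and 1 each was the PMC line PMC-303 and the PMC line PMC-306. All cultures came from mice of wild-type genotype and C57BL/6x129/Sv background. Both lines arose by spontaneous transformation of PMC cultures that had aged and been left unattended. The study reports chromosome changes and a loss of Cdkn2a and Arf expression in each line. Per the methods of the study, the medium of the primary PMCs contained 15% FCS, 20 ng/ml SCF and 30 ng/ml IL-3, and that of both lines contained less FCS (10%) and SCF (5 ng/ml). Medium and transformation therefore cannot be told apart in these libraries. The study also grew PMC-306 with the FCS and SCF amounts of primary PMCs. It reports that Cdkn2a, Arf, protease and Mrgprb2 mRNA did not change, while surface KIT fell. No such control is reported for the 10 members. The age of the mice is not given in the sources used here. Each line is represented by 1 library and has no replicate of its own. The labels call the primary cultures biological replicates without naming the animals, so that p-values measure the spread between these cultures.

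Mast cells store preformed mediators in their granules and, after stimulation through the high-affinity IgE receptor, other receptors or cytokines, transcribe and secrete cytokines and chemokines. Most of these genes are controlled by NFAT, NF-kB, AP-1 and GATA factors, and their mRNAs are short-lived because AU-rich element binding proteins mark them for decay. The values below are from cells in medium with IL-3 and SCF, without added stimulus. They therefore describe transcripts in that state, not a response to a further stimulus and not the secreted proteins.

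The libraries held between 15918758 and 24180226 estimated counts, and levels are given as CPM, which are counts relative to a library size scaled by the trimmed mean of M values (TMM). A value of 3 counts or fewer was taken as the counting floor, which lies between 0.123 and 0.187 CPM and covers counting error only. Mast cell identity was visible in every library. All 15 mast cell markers were above the floor in the 6 primary libraries and in PMC-303. In PMC-306 all except Mcpt4 were above it, and Mcpt4 was at the floor with 0.0491 CPM. The summed level of the markers was 46807 CPM (PMC-303) and 42456 CPM (PMC-306), lower than the 56765 to 87505 CPM of primary WT PMCs. Of these 15 markers 0 rose and 6 fell in the lines by the limma test used below, beside 18.3% and 15.5% of all genes tested. The most abundant of the 6 were Il1rl1 (log2 difference -0.69, adjusted p = 0.0123 with limma), Tpsb2 (-6.52), Fcer1a (-1.36) and Kit (-0.88). The Il1rl1 call was lost without PMC-303 and without PMC-306. At the floor in all 8 libraries were all 10 fibroblast and mesothelial markers and 6 of 9 T cell markers. So were 6 of 7 B cell and 7 of 11 granulocyte markers, but only 5 of 12 macrophage markers. The macrophage markers summed to 456 CPM (PMC-303) and 575 CPM (PMC-306) against 48.9 to 88.9 CPM in primary WT PMCs. They consisted mainly of Cx3cr1 in PMC-303 (447 CPM) and of Adgre1 in PMC-306 (426 CPM). Of 5 macrophage markers tested 2 rose and 0 fell, beside the same 18.3% and 15.5% of all genes. These were Cx3cr1 (log2 difference 2.59, adjusted p = 0.0164 with limma) and Icam2 (3.22, adjusted p = 0.0193 with limma). The Cx3cr1 call was lost without PMC-303 and the Icam2 call without PMC-306. The macrophage markers at the floor in all 8 libraries were C1qa, C1qb, Cd14, Mrc1 and Marco. Summed T cell markers were between 0 and 0.734 CPM, except in male 1 with 3.99 CPM, of which Cd4 made up 3.22 CPM. Summed B cell markers, nearly all Ighm, were between 0.682 and 21.4 CPM. Summed granulocyte markers were between 269 and 578 CPM, nearly all of it Cd200r3 (266 to 575 CPM). What part cells other than mast cells have in the levels below was not tested.

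Levels between genes were compared on the length-scaled TPM values that the authors deposited. In primary WT PMCs the monocyte chemoattractant Ccl2 was the most abundant member, with a median of 661 TPM (479 to 1035), followed by Tgfb1, the regulatory growth factor, with 104 TPM (79.5 to 120). Neither range overlapped that of the next member. Then came Tnf with a median of 23.3 TPM, Il6 with 22.7 TPM, Lif with 17.4 TPM, Csf1 with 11.6 TPM, Il4 with 11.1 TPM, Ccl3 with 2.32 TPM, Ccl4 with 1.95 TPM and Il13 with 1.59 TPM. From Tnf downwards the ranges of neighbouring members overlapped over the 6 primary libraries. Within libraries Il6 was higher than Lif, and Il4 higher than Ccl3, in 6 of 6 primary cultures, whereas the other neighbours from Tnf downwards changed order between cultures. The same order was obtained from CPM divided by the length of the longest transcript.

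**Figure D1:**
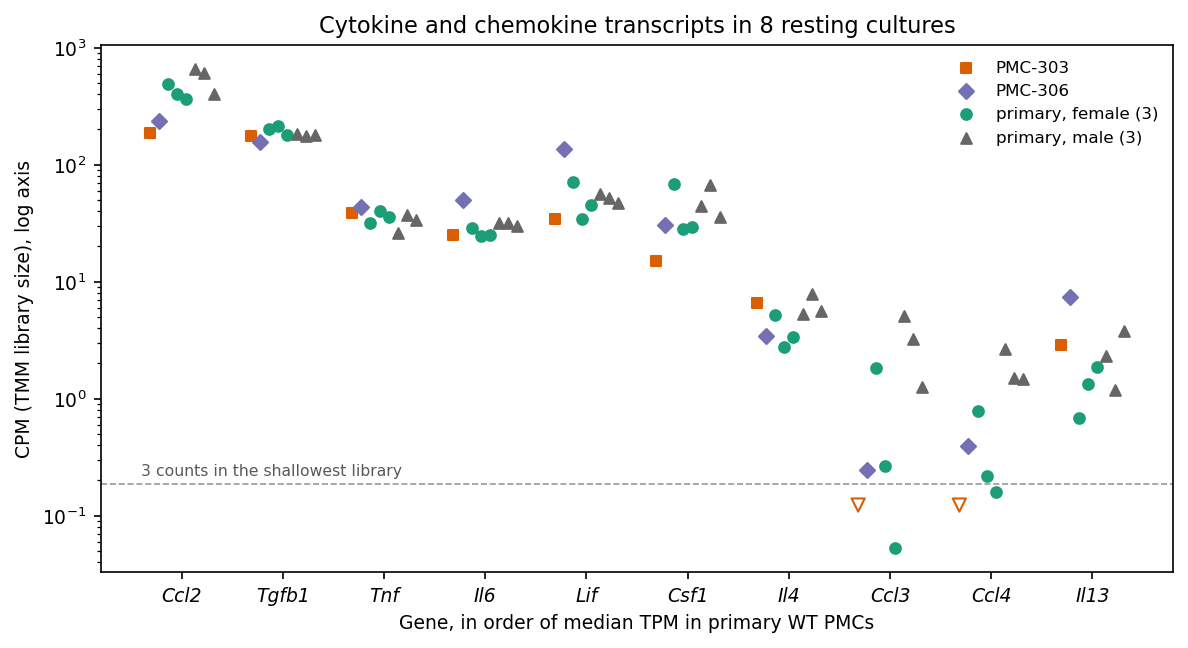
CPM (log axis) of the 10 members in each of the 8 libraries, ordered by median TPM in primary WT PMCs; each point is 1 library, and open triangles mark 0 counts, drawn at the 3-count limit of that library. Ccl2 sits lowest in both lines, Lif lies above the primary libraries in PMC-306 and at their lower edge in PMC-303, and Ccl3 and Ccl4 spread widest.

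None of the 10 members was at the counting floor in all 6 primary libraries, and 8 members were above it in every library of primary cells and lines. The exceptions were Ccl3 and Ccl4, which were at the floor in 1 of 6 primary libraries (female 3, with 1 and 3 counts) and in PMC-303, where both had 0 counts. With a floor of 10 counts the same 2 members were affected, now in 2 of 6 primary libraries and in both lines (PMC-306 had 5 counts of Ccl3 and 8 of Ccl4). Transcripts of the other 8 members were therefore detectable without added stimulus, in medium with IL-3 and SCF.

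The comparison of both lines with the 6 primary cultures asked which of these transcripts differ after transformation. Of the 10 members 1 changed, Ccl2, which fell, while the other 9 did not pass the test (limma on log2(CPM + 0.1), Benjamini-Hochberg adjustment over 14529 genes). Among all genes tested 33.9% were called in either direction and 15.5% were called lower. Whether 1 of 10 members differs from these shares was not tested. The median log2 difference of the 10 members was -0.10, beside -0.01 for all genes tested. Without PMC-303 in the comparison 3 members were called, and without female 3 or without male 3 there were 2, as given with each gene below. A fit without one line sets the other line, a single library, against the primary cultures, whose spread it is assumed to share, so that these p-values hold no replicate error of a line.

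**Figure D2:**
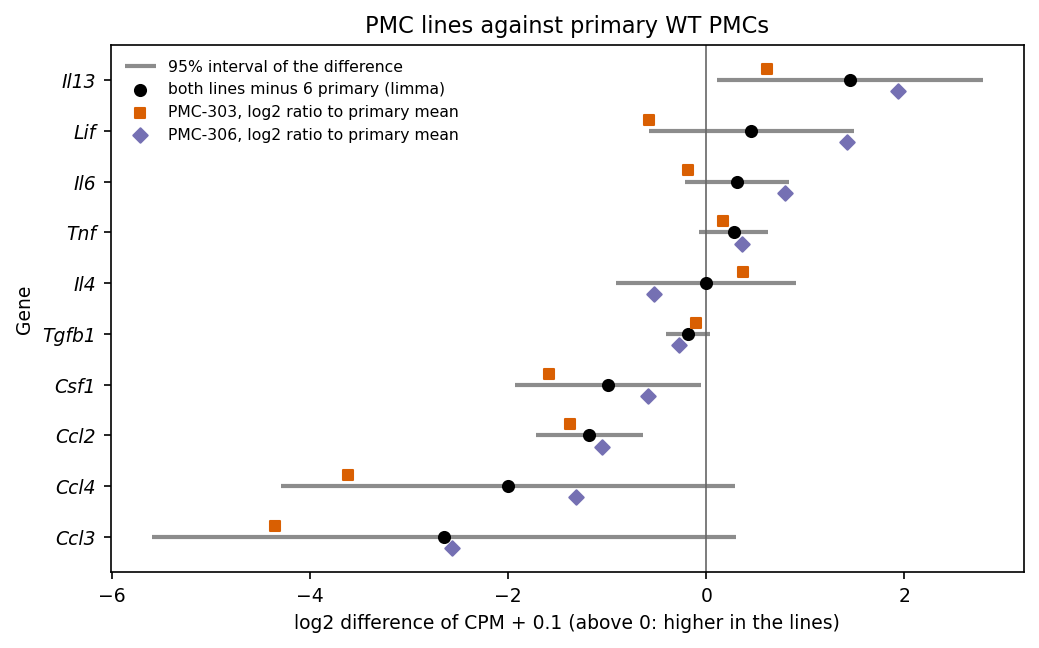
Difference between the 2 lines and the 6 primary cultures on the log2(CPM + 0.1) scale for each member; black points with grey bars give the limma estimate with its 95% interval, and squares and diamonds give PMC-303 and PMC-306 alone against the primary mean. The interval of Ccl2 lies wholly below 0 (-1.72 to -0.64), and the lines fall on opposite sides of 0 for Lif, Il6 and Il4.

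Set against the range of the 6 primary libraries, PMC-303 was below it for 5 members (Csf1, Ccl2, Ccl3, Ccl4 and Lif), within it for 5 and above it for 0. PMC-306 was above the primary range for 4 members (Il13, Il6, Tnf and Lif), below it for 2 (Ccl2 and Tgfb1) and within it for 4. Over all genes with at least 1 CPM, 66.5% lay outside the primary range in PMC-303 and 67.4% in PMC-306. On this scale Ccl2 was the only 1 of the 10 members for which both lines lay outside the range in the same direction, compared with 45.2% of all genes. Places close to the edge of the range depended on the scaling. With total counts as library size PMC-303 was within the range for Lif and above it for Tnf. With median-of-ratios size factors PMC-303 was below it for Tgfb1, and in deposited TPM PMC-303 was within it for Lif and above it for Tnf and Il13, and PMC-306 within it for Tgfb1. Both lines were then outside on the same side also for Tnf (total counts and TPM), Il13 (TPM) and Tgfb1 (size factors). The placing by size factors and by TPM was added after the data were seen. A difference of at least 5-fold in CPM + 0.1, the size the study used, was reached by 2 members in PMC-303 (Ccl3 and Ccl4) and by 1 in PMC-306 (Ccl3), beside 7.06% and 7.79% of all genes, but by 0 members in either line when 0.5 CPM was added in place of 0.1 CPM.

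Ccl2 (chromosome 11, 81926397 to 81928279 on the plus strand, GRCm39) encodes the ligand of CCR2 that draws monocytes into tissue. Its level was 487, 399 and 364 CPM in female cultures 1 to 3 and 657, 611 and 398 CPM in male cultures 1 to 3, a mean of 486 ± 122 CPM (SD, n = 6). The lines had 186 CPM (PMC-303) and 234 CPM (PMC-306). Both lines lay below every primary culture, at 38.3% and 48.1% of the primary mean, and the groups did not overlap. The log2 difference was -1.18 ± 0.24 (SE, limma, adjusted p = 0.00604). It passed the test under each of 15 alternatives, with an adjusted p between 0.00572 and 0.0494, the highest without PMC-303. In a bulk culture, fewer expressing cells and less RNA per cell cannot be told apart. Reads were assigned to Ccl2-201, the coding transcript, for 91.3% to 94.3% of the counts in primary WT PMCs, and the remainder to Ccl2-202, annotated as retaining an intron. This intron-retaining share was 12.8% in PMC-303 and 15.5% in PMC-306 against 5.75% to 8.68% in the primary cultures, without overlap. Unspliced Ccl2 RNA and Ccl2-202 were not told apart.

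Ccl7, another ligand of CCR2 whose gene lies 8253 bases from Ccl2, fell in the same comparison. It measured 13.5, 8.04 and 2.43 CPM in female and 20, 30.3 and 14 CPM in male cultures, but only 0.123 CPM (PMC-303) and 2.01 CPM (PMC-306) in the lines. Both lines were below all primary cultures, of which female 3 was the lowest. The log2 difference of -4.07 ± 1.02 (SE) had an adjusted p of 0.0155 with limma, but without PMC-303 it was -2.44 with an adjusted p of 0.138. The neighbouring eotaxin gene Ccl11 as well as Ccl8 and Ccl12 were at or near 0 counts in all libraries.

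Ccl3 and Ccl4, which encode the macrophage inflammatory proteins MIP-1α and MIP-1β, lie 13192 bases apart on chromosome 11 (Ccl3 at 83538670 to 83540191 on the minus strand, Ccl4 at 83553383 to 83555509 on the plus strand). Ccl3 had 40, 6 and 1 counts in female cultures 1 to 3 and 99, 52 and 24 counts in male cultures 1 to 3, which are 1.84, 0.264, 0.0527, 5.06, 3.23 and 1.26 CPM. Ccl4 had 17, 5 and 3 counts in the female and 52, 24 and 28 counts in the male cultures, which are 0.781, 0.220, 0.158, 2.66, 1.49 and 1.47 CPM. The primary cultures thus differed more from each other than for any other member, with a coefficient of variation of 97.9% for Ccl3 and 83.7% for Ccl4 compared with 8.29% to 59.1% for the other 8. Male 1 was the highest and female 3 the lowest culture for both genes.

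PMC-303 had 0 counts of Ccl3 and of Ccl4, which against the limit of 3 counts in this library is at least 15.8-fold lower for Ccl3 and at least 9.15-fold lower for Ccl4 than the primary mean. PMC-306 had 5 counts of Ccl3 (0.246 CPM), 12.6% of the primary mean with an exact Poisson interval from 4.09% to 29.4%, and 8 counts of Ccl4 (0.393 CPM), 34.8% of the primary mean with an interval from 15% to 68.5%. Both intervals cover counting error only. PMC-306 remained within the primary range for both genes, because female 3 was lower for both and female 2 lower for Ccl4. Over both lines the log2 difference was -2.65 ± 1.29 for Ccl3 (adjusted p = 0.149) and -2.0 ± 1.0 for Ccl4 (adjusted p = 0.159, SE, limma). For Ccl3 the adjusted p was between 0.0442, without female 3, and 0.493, without PMC-303. Ccl6, which lies 54757 bases from Ccl3, was lower in the lines (4.30 ± 4.16 CPM in primary WT PMCs, 0.0823 and 0.589 CPM in PMC-303 and PMC-306, log2 difference -3.08, adjusted p = 0.0403 with limma), but this call was lost under 7 of 15 alternatives, among them without PMC-303, without female 1, without male 2 and without male 3. Ccl9, at 65509 bases, was far apart in the lines, with 14.6 CPM for PMC-306, 0.123 CPM for PMC-303 and 0.220 to 1.79 CPM in the primary cultures. The difference over both lines was not called (log2 1.45, adjusted p = 0.443), and was 4.47 without PMC-303 (adjusted p = 0.00797, 1 library against the spread of the primary cultures) and -1.56 without PMC-306.

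**Figure D3:**
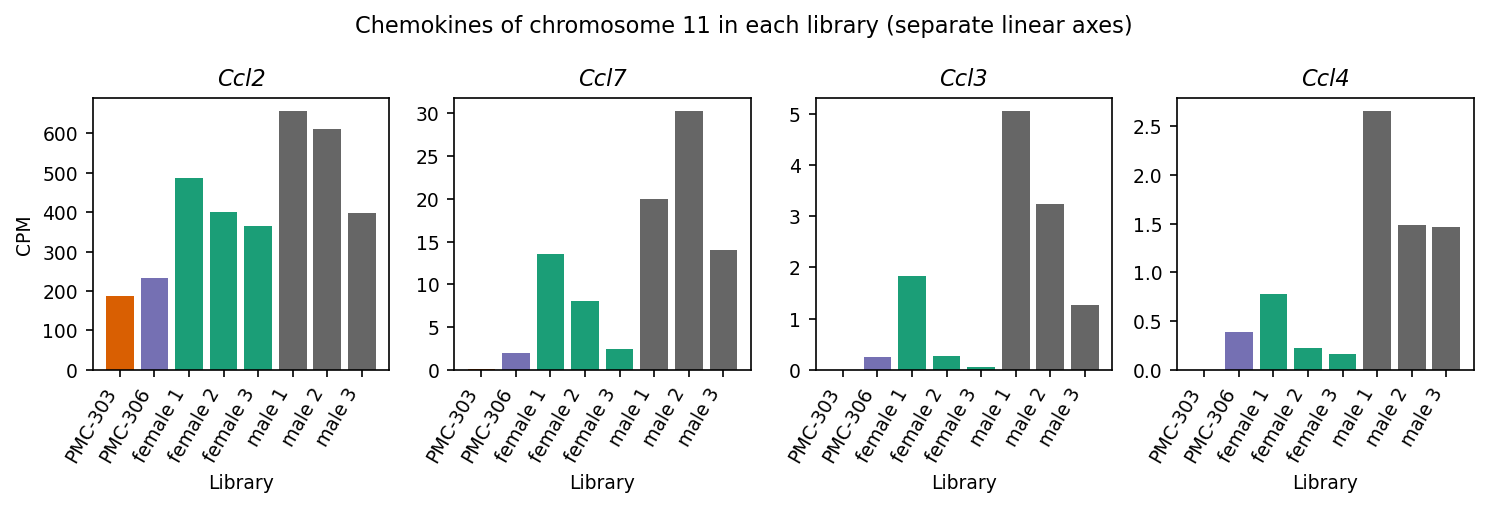
CPM of Ccl2, its neighbour Ccl7, Ccl3 and Ccl4 in each library, each panel with its own linear axis from 0; each bar is 1 library, orange for PMC-303, purple for PMC-306, green for female and grey for male primary cultures. Ccl2 is lowest in PMC-303 and PMC-306, and Ccl3 and Ccl4 have no counts in PMC-303 and are highest in male 1.

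The TH2 cytokines Il4 and Il13, which direct IgE production and allergic tissue responses, lie 12655 bases apart on chromosome 11. Il4 (53493809 to 53509496, minus strand) did not pass the test between lines and primary cultures. It measured 5.14, 2.77 and 3.37 CPM in female and 5.31, 7.83 and 5.66 CPM in male cultures, and 6.50 CPM (PMC-303) and 3.44 CPM (PMC-306) in the lines. Both lines lay within the primary range, 1 on either side of its mean. The log2 difference was 0.00 with a 95% interval from -0.91 to 0.90 (adjusted p = 0.995, limma).

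The model of the authors assigned none of the Il4 counts to the canonical transcript. All 805 counts over the 8 libraries were assigned to Il4-204 (71.1% to 87.9% per library) and Il4-202. The canonical Il4-201 and Il4-203 received 0, which by counting error alone allows a share of up to 0.373% over all libraries. Il4-201 starts upstream and has 4 exons with 420 coding bases. Il4-204 starts 1331 bases further downstream, with a first exon (53507908 to 53508165) inside intron 2 of Il4-201, lacks the first 2 exons and keeps 135 coding bases, all shared with Il4-201. Il4-202 has the same kind of start, no annotated coding sequence and a last exon that overlaps the end of Kif3a on the other strand. Il4-204 does not reach Kif3a. Libraries were made with a stranded kit, but the strand setting of the counting is not given in the sources used here. Antisense reads in Il4-202 or Il4-204 therefore cannot be told apart. The shares are model estimates, and single reads and splice junctions were not looked at. As the first exon of Il4-204 lies inside intron 2 of Il4-201, unspliced Il4 RNA cannot be told apart from Il4-204.

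The RefSeq promoter table holds 2 starts for Il4, an upstream one 4 bases from the annotated start of Il4-201 and an internal one at the start of Il4-204. The model assigned Il4 counts to Il4-204 and none to Il4-201. Because unspliced RNA cannot be told apart from Il4-204, the counts do not show which start was used. The 250 bases before each start are shown, 5′ to 3′ on the minus strand. They are from the GRCm38.p6 table of RefSeq, each with a single exact match in GRCm39 (chr11:53509493-53509742 and chr11:53508166-53508415). Capitals mark the NFAT core GGAAA and the GATA motif (GATA with A or T before it and A or G after it), both searched on either strand.
Il4 upstream: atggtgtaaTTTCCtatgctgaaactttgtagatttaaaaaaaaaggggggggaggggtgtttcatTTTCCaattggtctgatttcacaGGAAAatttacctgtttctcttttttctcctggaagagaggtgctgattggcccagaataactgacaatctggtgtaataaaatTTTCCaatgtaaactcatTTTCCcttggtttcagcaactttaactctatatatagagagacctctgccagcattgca
Il4 internal: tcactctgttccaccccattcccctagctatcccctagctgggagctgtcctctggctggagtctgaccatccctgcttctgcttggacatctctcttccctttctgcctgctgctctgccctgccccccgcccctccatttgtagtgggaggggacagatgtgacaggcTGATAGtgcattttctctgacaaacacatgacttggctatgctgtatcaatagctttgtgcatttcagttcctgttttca
The upstream window holds the NFAT core 5 times and no GATA motif, and the internal window holds TGATAG once, 80 bases before the start, and no NFAT core. Of 32851 windows of this length in the table, a share of 55.6% holds the NFAT core and 26.5% a GATA motif. A match is a run of letters and not a bound site.

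Il13 (53522151 to 53525529, minus strand) had the lowest median TPM of the members in primary WT PMCs. It measured 0.689, 1.32 and 1.85 CPM in female and 2.30, 1.18 and 3.78 CPM in male cultures, and 2.88 CPM (PMC-303) and 7.32 CPM (PMC-306) in the lines. PMC-306 was above every primary culture, at 395% of their mean, whereas PMC-303 lay within their range. The log2 difference of 1.45 ± 0.59 did not pass the test (adjusted p = 0.0898, SE, limma). The adjusted p lay between 0.0397 and 0.467 over 15 alternatives and passed the threshold only without male 3, the highest primary culture. Il5, the third TH2 cytokine of this locus at 86092 bases, was at the floor in all libraries. Rad50, which lies 14308 bases away, was not called (log2 0.20, adjusted p = 0.162), but it was called with total counts as library size (adjusted p = 0.0389) and without PMC-306 (adjusted p = 0.0247).

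The proinflammatory cytokine Il6 (chromosome 5, 30218112 to 30224979, plus strand) measured 28.5, 24.3 and 25.2 CPM in female and 31.6, 31.9 and 30.1 CPM in male cultures. PMC-303 had 25 CPM and PMC-306 had 49.5 CPM. PMC-303 was within the primary range, and PMC-306 stood above all primary cultures at 173% of their mean. Over both lines the log2 difference was 0.31 ± 0.23 (SE, adjusted p = 0.338, limma). With PMC-306 as the single line it was 0.81 (adjusted p = 0.00969), and with PMC-303 as the single line it was -0.18 (adjusted p = 0.458), both resting on the spread of the primary cultures alone.

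The Il6 counts also fell on other transcripts than the canonical Il6-201, which received 0% to 1.39% in every library. Il6-203, which keeps the last intron and shares 468 of its 624 coding bases with Il6-201, received 51.3% to 58.3% in primary WT PMCs, 37.1% in PMC-303 and 44.0% in PMC-306. Il6-204, which starts 207 bases downstream of Il6-201 and keeps 582 coding bases, received 38.6% to 46.3% in primary WT PMCs, 60.6% in PMC-303 and 54.0% in PMC-306. The shares of lines and primary cultures did not overlap for either transcript. No test was run on these estimated shares, and unspliced Il6 RNA and Il6-203 were not told apart.

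**Figure D4:**
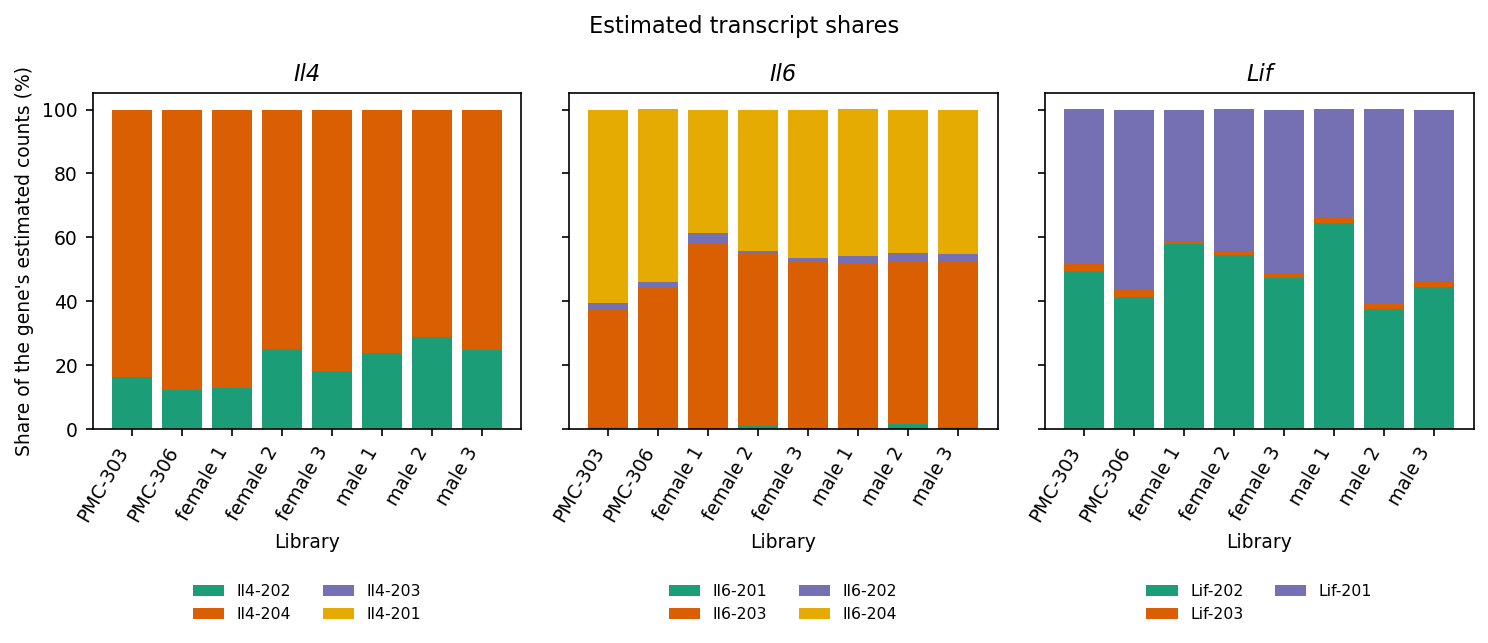
Share of the estimated counts of Il4, Il6 and Lif assigned to each annotated transcript, as a stacked bar per library that sums to 100%. Il4 counts sit on Il4-204 and Il4-202 alone, Il6 counts mainly on Il6-203 and Il6-204 with more Il6-204 in the lines, and Lif counts on both Lif-202 and Lif-201 in all libraries.

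Lif (chromosome 11, 4207557 to 4222514, plus strand), a cytokine of the IL-6 family that signals through LIFR and gp130, was higher in PMC-306 than in the other 7 libraries. It measured 71.3, 34.4 and 45.5 CPM in female and 55.7, 51.4 and 46.8 CPM in male cultures, and 34 CPM (PMC-303) and 136 CPM (PMC-306) in the lines. PMC-306 stood above the primary range, 4.02-fold higher than PMC-303, which lay at its lower edge. PMC-303 was below female 2 in TMM-scaled CPM (34 against 34.4) but within the primary range with total counts as library size (35.6 against 32.4 to 70 CPM) and in TPM (13.5 against 11 to 21.2). Over both lines the log2 difference was 0.45 ± 0.45 (SE, adjusted p = 0.476, limma). Without PMC-303 it was 1.46 (adjusted p = 0.0119) and without PMC-306 it was -0.55 (adjusted p = 0.237), each from 1 line library and the spread of the primary cultures. Lif-202 and Lif-201, which use first exons 9538 bases apart, each received a large share of the counts, with 37.5% to 64.4% on Lif-202 in primary WT PMCs, 49.4% in PMC-303 and 41.4% in PMC-306. The high level in PMC-306 was thus found on both transcripts, with 1151 counts on Lif-202 and 1566 on Lif-201. Osm, the related oncostatin M gene 16531 bases from Lif, was abundant (144 ± 46.8 CPM in primary WT PMCs, 80.1 CPM for PMC-303 and 162 CPM for PMC-306) and was not called (log2 difference -0.28, adjusted p = 0.55, limma), turning to 0.23 without PMC-303.

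Il6, Lif and Il13 were the members with the highest ratio of PMC-306 to the primary mean, and the 250 bases before their RefSeq starts are shown for this reason (chr5:30217862-30218111, chr11:4207318-4207567 and chr11:53525530-53525779, the last on the minus strand, positions in GRCm39 from a single exact match each of the GRCm38.p6 table). Capitals mark the NFAT core and GATA motifs as above, the AP-1 motif TGANTCA, the NF-kB motif GGANTTTCC and the TATA box TATAAA, on both strands.
Il6: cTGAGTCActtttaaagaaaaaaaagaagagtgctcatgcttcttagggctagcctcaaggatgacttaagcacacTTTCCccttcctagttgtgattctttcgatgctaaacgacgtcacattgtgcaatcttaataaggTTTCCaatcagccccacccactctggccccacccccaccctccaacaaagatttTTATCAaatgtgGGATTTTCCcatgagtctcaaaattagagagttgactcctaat
Lif: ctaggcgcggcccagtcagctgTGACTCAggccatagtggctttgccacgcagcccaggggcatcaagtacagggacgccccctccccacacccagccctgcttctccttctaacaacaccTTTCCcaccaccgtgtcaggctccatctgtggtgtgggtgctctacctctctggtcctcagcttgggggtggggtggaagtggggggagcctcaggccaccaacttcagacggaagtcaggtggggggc
Il13: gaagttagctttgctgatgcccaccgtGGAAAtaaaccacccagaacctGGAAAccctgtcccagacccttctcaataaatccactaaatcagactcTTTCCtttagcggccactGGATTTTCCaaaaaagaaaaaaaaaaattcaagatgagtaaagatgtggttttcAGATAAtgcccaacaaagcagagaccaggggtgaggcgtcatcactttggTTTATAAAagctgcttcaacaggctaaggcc
AP-1 motifs lie 249 bases before the Il6 start and 228 bases before the Lif start. NF-kB motifs lie 43 bases before the Il6 start and 135 bases before the Il13 start. Every match to GGANTTTCC, on either strand, also holds the NFAT core, so their overlap follows from the letters searched. The TATA box stands 29 bases before the Il13 start, beside an overlapping copy on the other strand. Of all windows a share of 6.75% holds the AP-1 motif, 1.07% the NF-kB motif and 12.4% the TATA box. The table had windows for 8 of the 10 members, and of these 9 windows 2 held AP-1, 3 NF-kB, 2 the TATA box and 7 the NFAT core. Windows for Ccl2 and Ccl4 were not used here. The Lif window lies before the start of Lif-202, 11 bases from it. No window is shown for Lif-201, which starts 9538 bases downstream and received more of the PMC-306 counts (1566 against 1151).

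Tnf (chromosome 17, 35418357 to 35420983, minus strand), which encodes the cytokine TNF that mast cells can also store, was among the steadiest members. It measured 31.7, 40.1 and 35.4 CPM in female and 26.2, 37.4 and 33.8 CPM in male cultures, and 38.4 CPM (PMC-303) and 43.7 CPM (PMC-306) in the lines. PMC-303 lay within the primary range and PMC-306 just above it, and the log2 difference of 0.28 had a 95% interval from -0.07 to 0.62 (adjusted p = 0.196, limma). Its neighbours in the lymphotoxin cluster, Lta at 1158 bases and Ltb at 3061 bases, were at or near the floor, with at most 0.102 and 0.420 CPM in any library. Lst1, at 10935 bases, measured 0.988 CPM (PMC-303) and 2.41 CPM (PMC-306) against 2.02 to 4.39 CPM, and was not called except without PMC-306 (adjusted p = 0.0458).

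Tgfb1 (chromosome 7, 25386390 to 25404506, plus strand) varied least between primary cultures, with 202, 215 and 179 CPM in female and 183, 176 and 180 CPM in male cultures. PMC-303 had 176 CPM and PMC-306 had 156 CPM. PMC-303 lay at the lower end of the primary range and PMC-306 below it, and the log2 difference of -0.19 had a 95% interval from -0.41 to 0.03 (adjusted p = 0.170, limma). Intron-retaining transcripts took 21.0% of the Tgfb1 counts in PMC-306 and 10.6% in PMC-303, against 7.67% to 11.9% in the primary cultures. Unspliced Tgfb1 RNA was not told apart from these transcripts.

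Csf1 (chromosome 3, 107648364 to 107667806, minus strand), the growth factor of monocytes and macrophages, measured 68.3, 28 and 29.1 CPM in female and 44.1, 66.7 and 35.7 CPM in male cultures. PMC-303 had 14.9 CPM, 33.0% of the primary mean and below all primary cultures, and PMC-306 had 30.2 CPM, within their range. The log2 difference of -1.0 ± 0.41 (SE) did not pass the test (adjusted p = 0.0961, limma) and had an adjusted p between 0.0615 and 0.517 over 14 alternatives. Csf1-201, the canonical transcript, took 77.3% to 95.6% of the counts in primary WT PMCs, 89.5% in PMC-303 and 71.6% in PMC-306.

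Other genes of the same pathways, from lists chosen with earlier results of these data known, placed the members in context. Their counts stand beside the 18.3% of all genes tested that were called higher and the 15.5% called lower in the lines. Of 37 other cytokines 10 could be tested, of which 2 rose and 3 fell, and 19 were at the floor in all 8 libraries. Mif, the macrophage migration inhibitory factor, rose from 29.7 ± 3.14 CPM (SD, n = 6) to 77.3 and 61.1 CPM in PMC-303 and PMC-306 (log2 difference 1.22, adjusted p = 0.000306), and the angiogenic factor Vegfa rose from 19.9 ± 4.02 to 42.9 and 41.1 CPM (1.1, adjusted p = 0.00363, limma). Tnfsf14, which encodes LIGHT, fell from 53.1 ± 15.2 to 19.3 and 19.6 CPM (-1.39, adjusted p = 0.00488), Pdgfa from 27.1 ± 7.88 to 8.85 and 13.1 CPM (-1.27, adjusted p = 0.00998, but 0.0848 without PMC-303) and Il15 from 12.3 ± 4.4 to 3.99 and 0.344 CPM (-3.12, adjusted p = 0.0115, limma, but 0.0558 without PMC-306). Of 28 other chemokines 6 could be tested, of which 2 fell, the neighbours Ccl7 and Ccl6 described above, and 17 were at the floor in all libraries. Of 22 list genes within 200 kb of a member 13 could be tested, 0 were called higher and 2 lower, again Ccl7 and Ccl6, which is near the share of all genes called lower (15.5%). Beside those already described, the neighbours Kif3a, Irf1, Nfkbil1, Hormad2, B9d2 and Ahcyl1 were not called, with log2 differences from -0.27 (Irf1) to 0.96 (Hormad2). With 1 alternative each, Hormad2 (without female 3, adjusted p = 0.0146), B9d2 (total counts as library size, 0.0412) and Ahcyl1 (without PMC-303, 0.0394, limma) were called.

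Of 18 receptor genes for the members 10 could be tested, 0 rose and 2 fell, beside 15.5% of all genes that fell. These were Il6st, the gene of the signal transducer gp130 shared by IL-6 and LIF (16.8 ± 2.58 CPM in primary WT PMCs, 5.6 CPM for PMC-303 and 1.72 CPM for PMC-306, log2 difference -2.38, adjusted p = 0.00173), and Tgfbr1, the type I TGF-β receptor (1712 ± 253, 536 and 586 CPM, -1.60, adjusted p = 0.000230, limma). Among the 8 receptors tested but not called, some left the primary range in a single line. Ccr2 reached 240 CPM for PMC-306, above a primary range of 0.56 to 3.2 CPM that held PMC-303 (2.8 CPM). Its log2 difference over both lines was 3.95 (adjusted p = 0.0572, limma). Ccr1 was above the range (23.9 to 120 CPM) for PMC-306 alone, at 345 CPM. Below their ranges were Il4ra, Tnfrsf1b and Ccr3 for PMC-303 and Tgfbr2 for PMC-306. Of 16 genes for the processing and release of the members 8 could be tested, 0 rose and 4 fell, beside the same 15.5%. Furin, the convertase that cleaves the TGF-β precursor, fell from 1528 ± 123 to 955 and 826 CPM (-0.78, adjusted p = 0.00123), and the integrin subunit Itgav, which takes part in the activation of latent TGF-β, fell from 113 ± 9.90 to 66.7 and 73.8 CPM (-0.69, adjusted p = 0.00125, limma). Rhbdf1 and Rhbdf2, partners of the TNF sheddase ADAM17, fell as well (-2.27 and -0.90 on the log2 scale, adjusted p = 0.0062 and 0.0291, limma), the latter not without PMC-303 (0.172) or without PMC-306 (0.0553).

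Of 26 transcription factor genes known to control these cytokines 25 could be tested, 2 rose and 5 fell, beside 18.3% and 15.5% of all genes. Nfkb1 rose from 101 ± 7.13 to 170 and 145 CPM (log2 difference 0.63, adjusted p = 0.00140) and Nfatc3 from 76.5 ± 5.66 to 107 and 90.3 CPM (0.36, adjusted p = 0.0211, limma, but 0.167 without PMC-303). Gata3 fell from 2.21 ± 0.658 to 0.0823 and 0.589 CPM (-2.66, adjusted p = 0.00429), and so did Batf (-0.90, adjusted p = 0.00449), Maf (-3.71, adjusted p = 0.0284, but up to 0.141 without PMC-303, female 1, male 1 or male 2), Nfkbie (-0.53, adjusted p = 0.0167) and Stat5b (-0.39, adjusted p = 0.0321, limma). The Nfkbie call was lost without PMC-306 (adjusted p = 0.136) and with total counts as library size, and that of Stat5b under 7 of 14 alternatives, among them without PMC-306, female 1, female 2 or male 1. Of 10 genes for the decay of cytokine mRNAs, all tested, 3 rose and 2 fell. Zfp36, which encodes the AU-rich element binding protein tristetraprolin, rose from 0.563 ± 0.298 to 1.98 and 8 CPM (2.78, adjusted p = 0.0126, but 0.126 without PMC-306), Hnrnpd from 33.6 ± 3.84 to 74.3 and 61.3 CPM (1.01, adjusted p = 0.000595) and Khsrp from 60.3 ± 4.49 to 89.4 and 82.3 CPM (0.51, adjusted p = 0.00319, limma). Zfp36l2 fell (-0.47, adjusted p = 0.0109, but 0.114 without PMC-303), as did Rc3h1, the gene of roquin-1 (-0.29, adjusted p = 0.0383, limma), a call lost under 9 of 14 alternatives, among them without either line, female 1, female 2, male 2 or male 3. The median log2 difference was -0.50 for the other cytokines, -1.08 for the other chemokines, -0.44 for the receptors, -0.73 for processing, -0.06 for the transcription factors and 0.15 for mRNA decay, beside -0.01 for all genes.

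Sex was the only labelled difference among the primary cultures. None of the 10 members passed the test between female and male cultures (limma, adjusted p = 1 for each), as 6 of 13710 genes or 0.0438% did, while 4 members and 457 genes had an unadjusted p under 0.05. These 4 were Il4, Il6, Ccl3 and Ccl4, each lower in female cultures. Ccl4 measured 0.386 ± 0.343 CPM in female and 1.87 ± 0.679 CPM in male cultures (SD, n = 3 each), a log2 difference of -2.19 ± 0.54 (SE), and Il4 measured 3.76 ± 1.24 and 6.27 ± 1.37 CPM, a difference of -0.75 ± 0.28. Il6 measured 26 ± 2.21 CPM in female and 31.2 ± 0.985 CPM in male cultures, a log2 difference of -0.27 ± 0.09. For Il4, Il6 and Ccl4 the female and male ranges did not overlap, which applied to 3 of 10 members and to 7.97% of all genes tested, whereas for Ccl3 female 1 lay between the male cultures.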

How the data were processed

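Libraries of 6 primary WT PMC cultures and 2 PMC lines were grouped by their labels. According to the methods, a stranded total RNA kit was used, and reads went through nf-core/rnaseq 3.5, that is Trim Galore 0.6.7 for trimming, STAR 2.7.9a for alignment to GRCm39 and Salmon 1.5.2 for quantification. Estimated counts of genes and transcripts, without normalization, and TPM of genes were deposited by the authors. Other values deposited by the authors in these tables were not used. A spreadsheet had rewritten 3.37% of the gene count cells and 3.22% of the transcript count cells. Each was set back to a number, after which 99.7% of gene counts were within 0.2 counts of their transcripts and the largest difference was 1.53. In 381 gene and 3601 transcript cells the rewritten value had more than 1 reading, none of them in a gene count of the members. The decimal point of rewritten TPM cells of the members was chosen to fit the counts. Because of the rewritten cells no count model was used.

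CPM were computed with library sizes from TMM. limma 3.58.1 in R 4.3.3 tested log2(CPM + 0.1) with its variance trend, and p-values were adjusted by Benjamini-Hochberg with a threshold of 0.05, over genes with at least 10 counts at the median library size in 2 libraries (3 for sex) and 15 counts in all, so a fold understates the change of low genes. The method was tested on simulated data. Fits used all 8 libraries for the lines and the 6 primary libraries for sex. Single lines were set beside the primary range; in a fit without one line the other is a single library, assumed to vary like the primary cultures. Other scalings, offsets, filters and each library left out were tried. Gene coordinates are from GENCODE M39 (GRCm39). The members and lists were chosen with earlier results of these data known. Named genes are the members, the called genes of each list with the highest mean CPM (at most 4) and list genes within 200 kb of a member, of which 1 is not reported here. Il15, Gata3, Maf, Batf, Zfp36, Adgre1, C1qa, C1qb, Cd14, Mrc1, Marco, Cd4 and Ighm were named after their values were seen. So were Mcpt4, Cd200r3, Lyz2, Cd68, Ccr1, Ccr2, Ccr3, Il4ra, Tnfrsf1b and Tgfbr2. Remaining calculations were done in Python 3.11.15 (pandas 2.3.3, numpy 2.4.6, scipy 1.17.1).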

Additional observations from a re-analysis of the deposited data

Results flagged for a closer look

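Lif lay on opposite sides of the primary range in the 2 lines, at 34 CPM (PMC-303) and 136 CPM (PMC-306) against 34.4 to 71.3 CPM in the 6 primary cultures. With total counts as library size PMC-303 lay within the range (35.6 against 32.4 to 70 CPM), as in TPM (13.5 against 11 to 21.2). The difference between the lines was not tested, as each has 1 library. No member had a primary culture that stood apart from the other 5 by Dixon's criterion, which by chance marks about 1 in 20 groups of this size.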

How the results depend on the processing

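Ccl2 was called lower in the lines under each of 15 alternatives. With each library left out in turn, 1 to 3 members were called in the comparison of the lines and 3773 to 4665 genes, and 0 members and 1 to 6 genes in that of the sexes. Without genes that had rewritten cells, fewer genes were tested, and 3090 genes were called for the lines and 1 for the sexes. With an offset of 0.5 CPM, 0 members differed by 5-fold in PMC-303 and 0 in PMC-306, and with each primary library left out 2 did in PMC-303 and 0 to 1 in PMC-306, where the call of Ccl3 was lost without male 1.

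With total counts as library size the median of all genes moved from -0.01 to 0.10 and the share of calls that were higher from 54.2% to 67.2%, and the log2 difference of Il4 turned to 0.10. With libraries left out, Il4 ranged from -0.45 to 0.45, turning positive without PMC-306 (0.45), female 1 (0.02), male 1 (0.03), male 2 (0.14) or male 3 (0.05), Il6 from -0.18 to 0.81, Lif from -0.55 to 1.46, Ccl9 from -1.56 to 4.47, Osm from -0.79 to 0.23 and Nfkbil1 from -0.041 to 0.34. Between the sexes Lif ranged from -0.36 to 0.15, positive without female 2. The causes were not tested.

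Correlations of same-numbered deviations between female and male cultures were 0.405, -0.216 and 0.284. They cannot decide whether replicate numbers pair the samples, as differently numbered cultures were not compared. With the replicate block 0 members and 5 genes were called.

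Without one line, the other is a single library assumed to vary like the primary cultures. Ccl3 and Ccl4, at 0 to 99 counts, are limited by depth, and medium and transformation cannot be told apart. TPM and transcript shares rest on the authors' model.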
